A study of Mus musculus with 12 samples.

Results

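CD8+ dendritic cells of the mouse spleen were compared with double-negative (DN) dendritic cells, which carry neither CD8 nor CD4 on their surface, both processed right after isolation (fresh). The comparison took the arrays titled as uncultured CD8+ and uncultured DN cells, which are 4 of the 12 arrays of the study, and covered all 12422 probe sets that are not controls. All 12 arrays held RNA of spleen cells sorted for high CD11c, the integrin used to select dendritic cells. The sorted CD4+, CD8+ and DN subsets were each measured fresh and after 2 h in culture medium, with 2 arrays in each of the 6 groups. The sources used here do not state the strain, age, sex or treatment of the mice, or whether the 2 arrays of a group came from separate animals. The p-values therefore measure the spread between these arrays, which may be technical.

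Dendritic cells take up antigen, process it and present it to T cells. Conventional dendritic cells of the spleen fall into a lineage that carries CD8 together with XCR1 and CADM1, known for cross-presenting antigen of dead cells to CD8+ T cells, and a lineage that lacks CD8 and carries SIRP-alpha, known for presentation to CD4+ T cells. The transcription factors IRF8, BATF3 and ID2 are needed for the first lineage, while IRF4, RELB and Notch signalling act in the second. Splenic dendritic cells that lack both CD4 and CD8 are usually counted with the second lineage.

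Intensities are the authors' Average Difference values, the mean signal of perfect-match over mismatch probes of a probe set, and they run below 0 where the mismatch probes were brighter. Differences are given on a generalised log2 scale that stays defined below 0, with the standard error of the fit after ±. An intensity under 91.4 was treated as below the detection floor. Where 1 or both arrays of the dimmer group lay below the floor, a fold is a lower bound and is written as at least N-fold. Tests are moderated tests in limma over all 12 arrays with Benjamini-Hochberg adjustment over the 6159 probe sets tested, and those that reached an adjusted p below 0.05 are said to be called, or to have risen or fallen. Each group had 2 arrays, which limits the precision of every value.

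The 4 arrays had the same trimmed mean intensity of 150.0, and 19.7% to 22.1% of their values lay below 0. Replicate 1 of the fresh CD8+ arrays stood apart from the others. The 3′ control probe set of Gapdh read 2.55 times the 5′ one, a ratio that rises when RNA is degraded, against 0.89 to 1.00 on the other 3 arrays. The same ratio for the beta-actin control did not set this array apart, at 0.91 against 0.93 to 0.94 on the other 3. Whether its RNA was degraded was not tested. Of the probe sets tested, 24.7% differed more than 2-fold between the CD8+ replicates and 7.7% between the DN replicates. The Spearman correlation over all 12422 probe sets that are not controls was 0.887 between the CD8+ replicates and 0.941 between the DN replicates. CD8+ and DN arrays correlated with each other at 0.878 to 0.928. In addition, 1 label of this array describes its cells as positive for CD4, while its title and source say CD8+. Its part in the results was not tested beyond leaving it out, and the calls that remain without each array are given with each group of genes.

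The genes behind the sort were checked first. Cd8a, which encodes the alpha chain of CD8, read 1210.4 and 1675 on the CD8+ arrays and 36.1 and 7.7 on the DN arrays. The difference was at least 15.6-fold (log2 difference 5.32 ± 0.52, adjusted p = 0.00118). Cd4 read 92.0 and 58.9 on the CD8+ arrays and 82.7 and 77.6 on the DN arrays, and 617 and 613 on the fresh CD4+ arrays, so the array with the CD4 label was far from the CD4+ arrays (log2 difference -0.10 ± 0.77, adjusted p = 0.997 between CD8+ and DN). Itgax, the gene of CD11c, read 1449.9 and 2454 on the CD8+ arrays and 2236 and 2770.2 on the DN arrays (log2 difference -0.40 ± 0.40, adjusted p = 0.937). The CD8+ and DN arrays were far apart for Cd8a and overlapped for Cd4 and Itgax. Itgam, the gene of the CD11b integrin chain of CD8-negative dendritic cells, was below the floor on all 4 arrays, at 22.1 and 4.8 in CD8+ and 82.0 and 5.1 in DN cells. The direction of both uncalled genes with low signal depended on a single array: without CD8+ replicate 2 the log2 difference of Cd4 was 0.18, and without DN replicate 1 that of Itgam was 0.25.

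Between fresh CD8+ and fresh DN cells, 88 of the 6159 probe sets were called (1.43%), 38 higher (0.617%) and 50 lower (0.812%) in CD8+ cells, and 583 had an unadjusted p under 0.05. The calls covered 80 named genes, 34 higher and 46 lower, and 2 probe sets without a single gene symbol. For Arhgap9, Fnbp1, Il1r2, Itgae, Relb, Ryr3 and Sirpa another probe set of the gene was tested and not called, with the same sign in each case (adjusted p from 0.0556 to 0.561 in limma). The log2 differences of the called probe sets ran from 1.56 to 5.32 among those that were higher (median 2.61) and from -1.15 to -4.61 among those that were lower (median -2.28), while the median over all tested probe sets was -0.01. The CD8+ and DN arrays did not overlap for any of the 88, but they did not overlap for 2180 of all tested probe sets either (35.4%). These shares are the background for each count of list members and each gap between the groups given below. With the experiment number as a block, 118 were called, 54 higher and 64 lower. With values under the floor set to the floor, 134 were called, 72 higher and 62 lower. Without an intensity trend in the variance model 46 were higher and 39 lower, and with only the compared groups in the fit 51 and 43. The excess of lower calls therefore depended on the treatment of dim values, the variance model and the arrays fitted. In 19 of the higher calls both DN arrays were below the floor, and in 16 of the lower calls both CD8+ arrays were.

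Leaving out an array leaves its group with a single array, so the mean of that group is less precise whichever array is dropped. Loss of precision and the content of the dropped array cannot be told apart here. The number of calls changed with the array left out. It was 34 without CD8+ replicate 1, 97 without CD8+ replicate 2, 11 without DN replicate 1 and 8 without DN replicate 2. Leaving out the 3 arrays of the study with a Gapdh ratio above 1.3, which are CD8+ replicate 1 and 2 cultured arrays, gave 155. In this setting 83 of the 88 calls remained. Dtx1, Cd8a, Ifitm1, Pde1b, Gusb and Plxnd1 were called without each of the 4 arrays in turn, and no called probe set changed direction under any alternative tried.

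**Figure D1:**
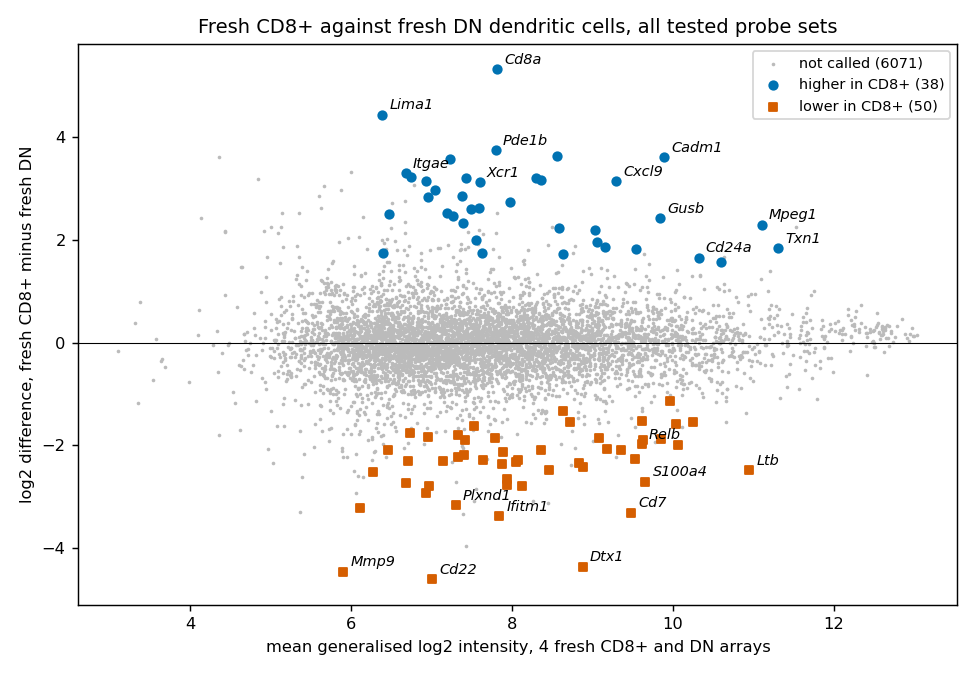
The difference between fresh CD8+ and fresh DN cells (vertical axis, log2) is plotted against the mean generalised log2 intensity of the 4 arrays (horizontal axis) for the 6159 tested probe sets, with called probe sets in colour. The 38 higher calls lie between 1.56 and 5.32 and the 50 lower calls between -1.15 and -4.61, and calls are found from dim to bright probe sets.

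Some of the genes known to mark CD8+ dendritic cells rose in the CD8+ sort. Of a list of 22 such markers, 16 were on the array and 13 were tested. Of these 13, 7 rose and 0 fell, with a median log2 difference of 2.25, against -0.01 over all tested probe sets, of which 0.617% rose. The list was chosen with earlier results of these data known and holds Cd8a, on which the cells were sorted. Cd8a, Xcr1 and Itgae passed the filter on low values only through CD8+ arrays, so the count and the median describe these genes and support nothing further. With a filter of 6 arrays 4 members rose. The other tested members, Irf8, Batf3, Id2, Gcsam, Itgb7 and Fgl2, were not called, and Itgb7 had a difference below 0. Since all of these are bulk samples, fewer cells that express a gene and less of its RNA per cell cannot be told apart.

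Cadm1, an adhesion molecule that binds CRTAM on activated T cells, read 3325 and 3296 on the CD8+ arrays and 228 and 317 on the DN arrays. The difference was 12.2-fold (log2 difference 3.61 ± 0.45, adjusted p = 0.00371), and 2 further probe sets of the gene were also called, with log2 differences of 3.64 and 3.15. Xcr1, the receptor for the chemokine XCL1 that marks this lineage, read 373 and 872 on the CD8+ arrays and 64.8 and 51.6 on the DN arrays, at least 6.24-fold higher (log2 difference 3.12 ± 0.43, adjusted p = 0.00603). For both genes each CD8+ array was several times brighter than either DN array, although the CD8+ replicates of Xcr1 differed from each other by more than those of Cadm1. Itgae, the alpha chain of the CD103 integrin that binds E-cadherin, read 298 and 345 on the CD8+ arrays and 8.6 and 25.3 on the DN arrays (at least 3.51-fold higher, log2 difference 3.30 ± 0.57, adjusted p = 0.0156). Ly75, the endocytic receptor DEC-205 used to target antigen to these cells, read 476 and 474 on the CD8+ arrays and 74.3 and 68.1 on the DN arrays (at least 5.2-fold higher, log2 difference 2.61 ± 0.54, adjusted p = 0.0411). Cxcl9, a chemokine that draws CXCR3-bearing T cells, read 2299.8 and 1502 on the CD8+ arrays and 225 and 193 on the DN arrays (8.82-fold, log2 difference 3.14 ± 0.45, adjusted p = 0.0063). Itgae and Ly75 were below the floor on both DN arrays, whereas Cxcl9 was detected on all 4. Cd24a, a glycosylphosphatidylinositol-anchored surface protein, read 2063 and 2486 on the CD8+ arrays and 712 and 728 on the DN arrays and was 3.14-fold higher (log2 difference 1.65 ± 0.28, adjusted p = 0.0148), a smaller difference over a clear signal in DN cells. Without CD8+ replicate 1, CD8+ replicate 2, DN replicate 1 or DN replicate 2, in this order, 3, 4, 1 and 2 of these 7 genes were still called, with adjusted p up to 0.307. Cd8a was called each time.

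The sequence around the start site of Cd8a is shown because this gene had the highest difference of all and because its window holds matches to the composite letters read by ETS factors with IRF4 or IRF8. It comes from RefSeq for the build GRCm38.p6, at chr6:71373177-71373476 on the + strand, from 250 bases before to 50 after the annotated start, and the capitals mark 2 matches to GGAANNGAAA and 1 to TGGGAA, all on the opposite strand.
Cd8a: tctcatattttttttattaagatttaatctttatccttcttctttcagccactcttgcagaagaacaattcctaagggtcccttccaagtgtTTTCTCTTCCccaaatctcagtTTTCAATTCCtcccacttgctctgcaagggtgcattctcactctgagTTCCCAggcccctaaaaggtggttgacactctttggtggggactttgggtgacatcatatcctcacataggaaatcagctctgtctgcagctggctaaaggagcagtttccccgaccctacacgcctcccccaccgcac
A match describes the letters of this window and does not show that a factor binds there.

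The other called genes are described in groups formed by hand after the calls, which are an order for the text and no test of a theme. Of the higher genes, 8 are placed with the endosome, the lysosome and the membrane. Gusb, the lysosomal beta-glucuronidase, read 2169.9 and 2060.0 on the CD8+ arrays and 385 and 403 on the DN arrays, and the difference was 5.35-fold (log2 difference 2.42 ± 0.25, adjusted p = 0.00139). Mpeg1, the pore-forming perforin-2 of phagocytes, read 7071 and 3369 on the CD8+ arrays and 1114 and 888 on the DN arrays (4.91-fold, log2 difference 2.29 ± 0.39, adjusted p = 0.0148). Ppt2, a lysosomal thioesterase, read 355 and 308 on the CD8+ arrays and 26.1 and 45.6 on the DN arrays (at least 3.62-fold higher, log2 difference 2.84 ± 0.46, adjusted p = 0.0116). The replicates of Gusb lay close together in both groups, while the CD8+ replicates of Mpeg1 differed more than 2-fold, and neither gene had overlapping groups. Slc11a1, a metal ion transporter of the phagosome membrane that limits growth of microbes, read 534 and 781 on the CD8+ arrays and 82.1 and 103 on the DN arrays (at least 6.67-fold higher, log2 difference 2.73 ± 0.38, adjusted p = 0.00603). Laptm4b, a lysosomal membrane protein, read 450.2 and 442 on the CD8+ arrays and 69.9 and 39.7 on the DN arrays (at least 4.88-fold higher, log2 difference 2.85 ± 0.42, adjusted p = 0.00754).

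Among membrane proteins of antigen handling, Cd1d1, which presents lipid antigen to natural killer T cells, read 1277 and 921 on the CD8+ arrays and 286 and 307 on the DN arrays (3.64-fold, log2 difference 1.87 ± 0.37, adjusted p = 0.0327). Fcgr2b, the inhibitory receptor for IgG, read 355 and 366 on the CD8+ arrays and 61.6 and 53.3 on the DN arrays (at least 3.94-fold higher, log2 difference 2.47 ± 0.49, adjusted p = 0.0327). Cd81, a tetraspanin, read 746 and 1669 on the CD8+ arrays and 220.5 and 266 on the DN arrays (4.57-fold, log2 difference 2.19 ± 0.40, adjusted p = 0.0197). Both CD8+ arrays were above both DN arrays for each of the 3, with the widest spread between CD8+ replicates for Cd81. Of the 37 tested genes in a list of 48 lysosomal enzymes and membrane proteins, 3 rose (Gusb, Ppt2 and Mpeg1) and 1 fell (Acp5, tartrate-resistant acid phosphatase), with a median of 0.08, while 0.617% of all tested probe sets rose and 0.812% fell. Scarb2, which carries glucocerebrosidase to the lysosome, read 506 and 498 on the CD8+ arrays and 167 and 232 on the DN arrays and was not called (log2 difference 1.34 ± 0.32, adjusted p = 0.0778), though it was with the experiment number as a block (adjusted p = 0.0487). Of the 8 called genes of both paragraphs, 3, 5, 1 and 1 were still called without CD8+ replicate 1, CD8+ replicate 2, DN replicate 1 or DN replicate 2, with adjusted p up to 0.300. Gusb was called each time.

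The higher genes also included 9 enzymes and related proteins of signalling, redox and lipid metabolism. Pde1b, a phosphodiesterase that breaks down cyclic nucleotides when calcium and calmodulin are present, read 686 and 968 on the CD8+ arrays and 47.4 and 57.7 on the DN arrays, a difference of at least 8.92-fold (log2 difference 3.74 ± 0.43, adjusted p = 0.00257). It was the only one of the 19 tested genes in a list of cyclic nucleotide and calcium signalling that was called, and the median of that list was -0.24. Txn1, thioredoxin, read 5661 and 4032 on the CD8+ arrays and 1319.8 and 1357 on the DN arrays (3.57-fold, log2 difference 1.84 ± 0.26, adjusted p = 0.00603), and Gclc, the catalytic subunit of the rate-limiting enzyme of glutathione synthesis, read 442 and 240.0 on the CD8+ arrays and -7.9 and 55.7 on the DN arrays (at least 3.57-fold higher, log2 difference 3.22 ± 0.66, adjusted p = 0.0377). Txn1 was bright in both groups, while Gclc was below the floor in DN cells. Pdia5, a protein disulphide isomerase of the endoplasmic reticulum, read 949.6 and 1028 on the CD8+ arrays and 134 and 82.1 on the DN arrays (at least 8.95-fold higher, log2 difference 3.17 ± 0.41, adjusted p = 0.00371). Plin2, the coat protein of lipid droplets, read 616 and 1490.2 on the CD8+ arrays and 141 and 67.3 on the DN arrays (at least 8.43-fold higher, log2 difference 3.21 ± 0.51, adjusted p = 0.0109). Plpp1, a lipid phosphate phosphatase, read 328 and 813 on the CD8+ arrays and 18.7 and 45.8 on the DN arrays (at least 5.65-fold higher, log2 difference 3.58 ± 0.63, adjusted p = 0.0175). For Plin2 and Plpp1, CD8+ replicate 2 was more than 2-fold above CD8+ replicate 1, and both were above the DN arrays. Gatm, which makes a precursor of creatine, Ece1, which cleaves endothelin precursors, and Pla2g12a, a secreted phospholipase, were 4.69-, 3.87- and 3.37-fold higher, with adjusted p = 0.0264, 0.0063 and 0.0416. Of these 9 genes, 5, 4, 2 and 1 were still called without CD8+ replicate 1, CD8+ replicate 2, DN replicate 1 or DN replicate 2, with adjusted p up to 0.321. Pde1b was called each time.

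The other higher genes belong to no single function. Lima1, an actin-binding protein, read 300.5 and 499.5 on the CD8+ arrays and -18.8 and -3.8 on the DN arrays, a difference of at least 4.24-fold (log2 difference 4.44 ± 0.77, adjusted p = 0.0161). Its fitted log2 difference is the second highest of all but rests on DN values below 0, and the bound is the more cautious figure. Aif1, an actin-binding protein of phagocytes, read 667 and 408 on the CD8+ arrays and 42.7 and 53.2 on the DN arrays (at least 5.71-fold higher, log2 difference 3.20 ± 0.63, adjusted p = 0.0312). Serpinb9, an inhibitor of granzyme B, read 589 and 334 on the CD8+ arrays and 61.3 and 70.5 on the DN arrays (at least 4.86-fold higher, log2 difference 2.61 ± 0.43, adjusted p = 0.0124). Lsr, a lipoprotein receptor, rose with both of its probe sets and read 313 and 447 on the CD8+ arrays and 81.2 and 56.6 on the DN arrays on the brighter (at least 4.09-fold higher, log2 difference 2.32 ± 0.45, adjusted p = 0.0293). For these genes every CD8+ array was above the floor and every DN array below it. Flt1, a receptor for vascular endothelial growth factor, was at least 2.28-fold higher and Cenpv, a centromere protein, at least 4.04-fold higher. Nek6, a mitotic kinase, was at least 4.03-fold higher (adjusted p = 0.022). Fnbp1, a membrane-bending protein, Unc119b, a lipid-binding trafficking protein, and Adam8, a metalloprotease, were 3.32-, 3.52- and 2.95-fold higher, with adjusted p = 0.0327, 0.0109 and 0.0488. Of these 10 genes, 0, 3, 0 and 0 were still called without CD8+ replicate 1, CD8+ replicate 2, DN replicate 1 or DN replicate 2, with adjusted p up to 0.424.

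**Figure D2:**
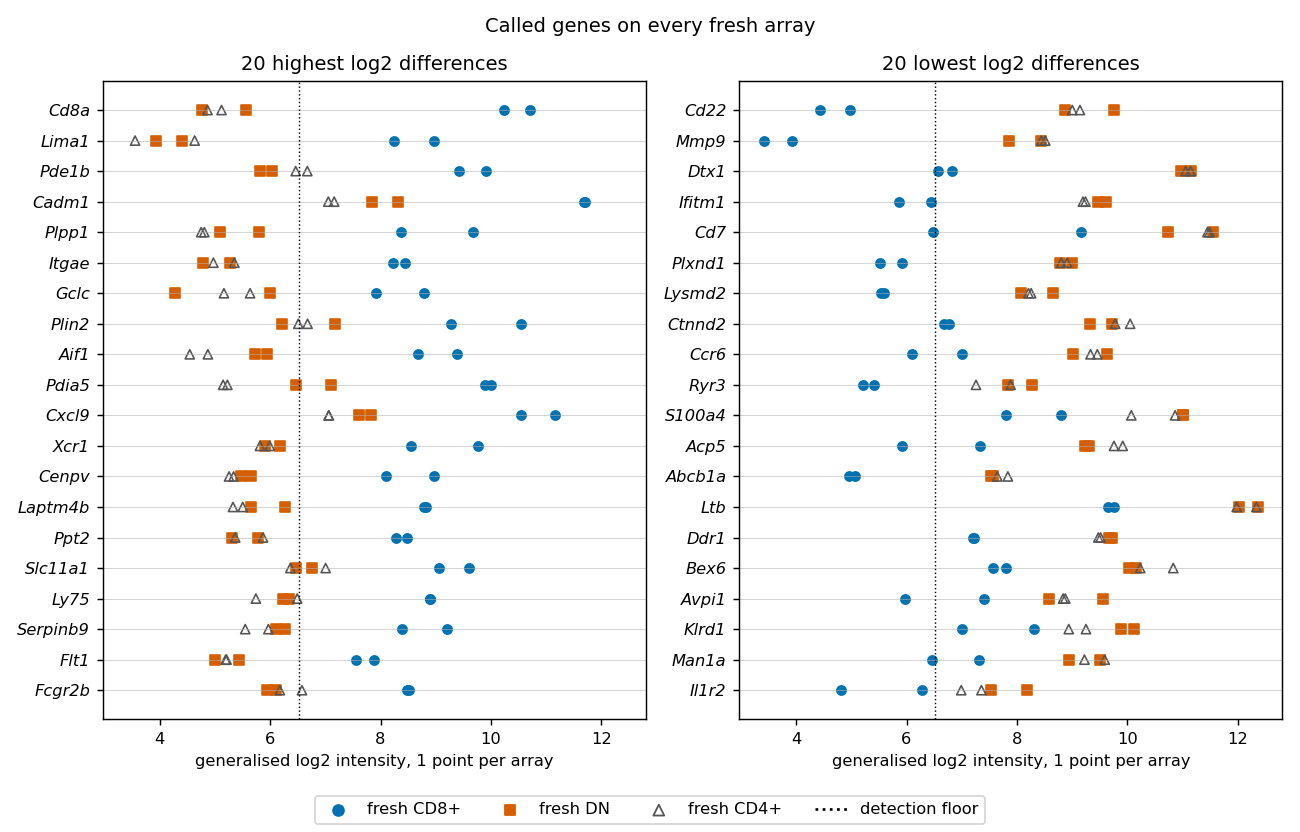
Each point is 1 array, with the generalised log2 intensity on the horizontal axis, for the 20 called genes of highest (left) and of lowest (right) log2 difference between fresh CD8+ and fresh DN cells. The CD8+ and DN points do not overlap in any row, and the dotted line is the detection floor, below which many DN points lie on the left and many CD8+ points on the right. The fresh CD4+ arrays are drawn for reference.

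Some of the genes known from CD8-negative dendritic cells fell. Of a list of 23, 16 were on the array and all 16 were tested. Of these, 6 fell and 0 rose, with a median of -2.13, while 0.812% of all tested probe sets fell. This list too was chosen with earlier results of these data known, and 4 of its members passed the filter only through CD4+ and DN arrays, so its count and median are a description. The 6 were Dtx1, Ltb, Relb, S100a4, Ifitm1 and Plxnd1. The other 10 were not called, among them Cd4, Itgam, Irf4, Ccr2, Cx3cr1 and Csf1r, and Csf3r had a difference above 0. Sirpa, which encodes the SIRP-alpha receptor for CD47, read 55.1 and 218 on the CD8+ arrays and 1111 and 944 on the DN arrays on its brightest probe set, and the difference of at least 7.25-fold was just short of the threshold (log2 difference -3.12 ± 0.69, adjusted p = 0.0556). With the experiment number as a block it passed (adjusted p = 0.033). A second probe set of Sirpa read 18.8 and 47.9 on the CD8+ arrays and 325 and 344 on the DN arrays and fell (at least 3.66-fold lower, log2 difference -2.93 ± 0.46, adjusted p = 0.0101), and another was not called. On both of these probe sets each CD8+ array was below each DN array, with the wider gap between the CD8+ replicates on the brighter one.

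Dtx1, the Notch target and Notch-binding ubiquitin ligase Deltex1, had the smallest adjusted p of all genes. It read 108 and 90.0 on the CD8+ arrays and 2014 and 2278 on the DN arrays, at least 21.5-fold lower in CD8+ cells (log2 difference -4.37 ± 0.28, adjusted p = 4.29e-05). The fresh CD4+ arrays read 2267 and 2131, as high as DN cells. Each CD8+ array was close to the detection floor, and the call held without each of the 4 arrays, with adjusted p between 0.000735 and 0.00265. Of a list of 30 Notch pathway genes, 21 were on the array and 15 were tested. Dtx1 was the only one called, and the median of the list was -0.11. The receptor Notch1 read 106 and 216 on the CD8+ arrays and 253 and 201 on the DN arrays (log2 difference -0.55 ± 0.44, adjusted p = 0.865). Mfng, a glycosyltransferase that modifies Notch receptors, read 134 and 299 on the CD8+ arrays and 378 and 376 on the DN arrays (log2 difference -0.90 ± 0.40, adjusted p = 0.518). Notch4 read 517 and 194 on the CD8+ arrays and 14.4 and 35.2 on the DN arrays, opposite in sign to Dtx1 and not called (log2 difference 3.07 ± 0.76, adjusted p = 0.0919), although it passed the threshold in 8 of the alternatives tried. The RefSeq window around the start of Dtx1, on the - strand at chr5:120711620-120711919 of GRCm38.p6, is shown because of the size of this difference in a known Notch target. It held no match to any of the 5 motifs searched, among them TGGGAA, the core read by the Notch effector RBPJ. It is therefore in lower case throughout.
Dtx1: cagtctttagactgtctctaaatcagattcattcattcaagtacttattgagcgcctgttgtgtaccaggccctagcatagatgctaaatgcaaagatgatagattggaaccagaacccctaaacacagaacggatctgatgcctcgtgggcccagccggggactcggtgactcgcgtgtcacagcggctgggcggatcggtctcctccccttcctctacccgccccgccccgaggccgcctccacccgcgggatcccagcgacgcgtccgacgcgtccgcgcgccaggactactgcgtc
The absence of these letters from the window says nothing about RBPJ, which can act from elsewhere.

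In the NF-kB and tumour necrosis factor group, 27 of 44 listed genes were tested, 3 fell, 0 rose, and the median was -0.54, while 0.812% of all tested probe sets fell and 0.617% rose. Of the 27, 5 passed the filter on low values only through CD4+ and DN arrays and 1 only through CD8+ arrays. The count and the median are therefore a description. Ltb encodes lymphotoxin beta, the membrane anchor of a cytokine that maintains the structure of lymphoid tissue and acts through the non-canonical NF-kB pathway. It read 866 and 804 on the CD8+ arrays and 4177 and 5275 on the DN arrays, 5.62-fold lower in CD8+ cells (log2 difference -2.49 ± 0.29, adjusted p = 0.00276). Relb, the NF-kB subunit that this pathway activates, read 370.0 and 417 on the CD8+ arrays and 1401 and 1735 on the DN arrays (3.96-fold lower, log2 difference -1.99 ± 0.23, adjusted p = 0.00276), with a second probe set not called at adjusted p = 0.0774. Bcl3, a nuclear IkB protein, read 83.5 and 77.3 on the CD8+ arrays and 255 and 349 on the DN arrays (at least 3.26-fold lower, log2 difference -1.80 ± 0.32, adjusted p = 0.0196). The CD8+ replicates lay close together for all 3 genes, and no CD8+ array reached a DN array. Nfkb2, which encodes the partner of RELB, read 166 and 272 on the CD8+ arrays and 495 and 601 on the DN arrays and was not called (log2 difference -1.34 ± 0.40, adjusted p = 0.188). The inhibitor genes Nfkbia and Nfkbie were also lower without being called, at 1680.5 and 2417 on the CD8+ arrays and 3136 and 4336 on the DN arrays for Nfkbia (adjusted p = 0.571) and 2.0 and 75.6 on the CD8+ arrays and 122 and 172 on the DN arrays for Nfkbie (adjusted p = 0.204). Without CD8+ replicate 1, CD8+ replicate 2, DN replicate 1 or DN replicate 2, 2, 2, 2 and 0 of the 3 genes were still called. Bcl3 was lost each time, with adjusted p from 0.0625, and Ltb and Relb were lost only without DN replicate 2, when the lowest adjusted p of the 3 was 0.068.

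The window around the start of Ltb, from RefSeq at chr17:35194257-35194556 of GRCm38.p6 on the + strand, is shown because it holds a match to the NF-kB letters GGGANNNNCC, which read along the opposite strand. The capitals mark that match as it appears on the printed strand.
Ltb: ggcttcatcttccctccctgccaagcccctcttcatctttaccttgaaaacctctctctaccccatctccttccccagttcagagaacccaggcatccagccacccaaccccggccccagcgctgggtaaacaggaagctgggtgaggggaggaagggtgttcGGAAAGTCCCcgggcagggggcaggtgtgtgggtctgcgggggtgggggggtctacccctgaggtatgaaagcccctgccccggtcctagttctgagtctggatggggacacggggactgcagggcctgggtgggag
Aif1, which was higher in CD8+ cells, lies close to Ltb on chromosome 17, with 1 protein-coding gene between them in the RefSeq order, so neighbouring genes moved in opposite directions here.

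Of the lower genes, 11 encode receptors and other surface proteins. Cd22, an inhibitory lectin best known from B cells, read 14.8 and -2.8 on the CD8+ arrays and 466 and 863 on the DN arrays and was at least 6.94-fold lower in CD8+ cells (log2 difference -4.61 ± 0.75, adjusted p = 0.0116). Lsr, which rose, lies near it on chromosome 7, with 4 protein-coding genes between them. Cd7, an immunoglobulin-family protein best known from T and natural killer cells, read 83.6 and 574 on the CD8+ arrays and 3002 and 1698 on the DN arrays (at least 9.86-fold lower, log2 difference -3.32 ± 0.68, adjusted p = 0.0405). Plxnd1, a receptor for semaphorins, read 34.3 and 52.2 on the CD8+ arrays and 507 and 437 on the DN arrays (at least 5.15-fold lower, log2 difference -3.16 ± 0.32, adjusted p = 0.0013). Cd22 and Plxnd1 were below the floor in CD8+ cells, whereas the 2 CD8+ arrays for Cd7 differed several-fold, with the array of high Gapdh ratio the lower. The call of Cd7 was lost with the experiment number as a block (adjusted p = 0.0579). Ccr6, the receptor of the chemokine CCL20, read 124 and 61.3 on the CD8+ arrays and 790.0 and 520.0 on the DN arrays (at least 6.02-fold lower, log2 difference -2.77 ± 0.42, adjusted p = 0.00792). Klrd1, which encodes CD94 of natural killer cell receptors, read 317 and 125 on the CD8+ arrays and 947 and 1109 on the DN arrays (5.06-fold lower, log2 difference -2.34 ± 0.45, adjusted p = 0.0277). Ddr1, a receptor kinase for collagen, read 147 and 144 on the CD8+ arrays and 814 and 849 on the DN arrays (5.58-fold lower, log2 difference -2.48 ± 0.31, adjusted p = 0.00371). In these 3 the brightest CD8+ array was still below the dimmer DN array by a wide margin. Il1r2, the decoy receptor for interleukin 1, read 71.3 and 9.7 on the CD8+ arrays and 288 and 182 on the DN arrays (at least 2.51-fold lower, log2 difference -2.30 ± 0.42, adjusted p = 0.0201).

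The tyrosine phosphatase Ptpro was 4.4-fold lower and embigin, Emb, an adhesion protein, at least 3.94-fold lower, with adjusted p = 0.0348 and 0.0264 in limma. Ms4a4c and Ms4a4d, relatives of CD20 in a cluster on chromosome 19, read 45.7 and 17.5 on the CD8+ arrays and 185 and 174 on the DN arrays for Ms4a4c (at least 1.96-fold lower, adjusted p = 0.0426) and 95.6 and 45.3 on the CD8+ arrays and 342 and 355 on the DN arrays for Ms4a4d (at least 3.73-fold lower, adjusted p = 0.0174). Both fell, with 4 protein-coding genes between them. Cd72, an inhibitory receptor that B cells share, read 77.7 and 152 on the CD8+ arrays and 446 and 319 on the DN arrays and was not called (log2 difference -1.73 ± 0.51, adjusted p = 0.174). Fcer1g, the signalling chain of activating Fc receptors, read -10.9 and 16.5 on the CD8+ arrays and 208 and 157 on the DN arrays and missed the threshold narrowly (log2 difference -2.92 ± 0.64, adjusted p = 0.052). Clec4a2, a lectin receptor of CD8-negative dendritic cells, read 44.6 and -1.5 on the CD8+ arrays and 136 and 200.2 on the DN arrays (log2 difference -2.28 ± 0.62, adjusted p = 0.143). No CD8+ array reached a DN array for any of these genes, called or not, as for 35.4% of all tested probe sets. In a list of 34 inhibitory and activating receptors, 17 were tested, 1 rose (Fcgr2b), 2 fell (Cd22 and Klrd1) and the median was -0.75. Of the 17, 5 passed the filter on low values only through CD4+ and DN arrays and 1 only through CD8+ arrays. The counts and the median are therefore a description. Of the 11 called surface genes from Cd22 to Ms4a4d, 6, 4, 1 and 1 were still called without CD8+ replicate 1, CD8+ replicate 2, DN replicate 1 or DN replicate 2, with adjusted p up to 0.322. Plxnd1 was called each time.

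Pairs of related neighbours fell together in the Ifitm and S100 families. Ifitm1, a membrane protein that restricts virus entry, read 81.2 and 48.9 on the CD8+ arrays and 779.6 and 706 on the DN arrays (at least 8.12-fold lower, log2 difference -3.39 ± 0.33, adjusted p = 0.00118). Ifitm6 read 454 and 219 on the CD8+ arrays and 1236 and 1487 on the DN arrays (4.27-fold lower, log2 difference -2.09 ± 0.34, adjusted p = 0.0116). S100a4, a calcium-binding protein of motile cells, read 443 and 222 on the CD8+ arrays and 2053 and 2075 on the DN arrays (6.54-fold lower, log2 difference -2.71 ± 0.39, adjusted p = 0.0063). Its relative S100a6 read 491 and 472 on the CD8+ arrays and 1605 and 1985 on the DN arrays (3.7-fold lower, log2 difference -1.89 ± 0.27, adjusted p = 0.00622). The DN replicates lay close together in all 4 genes, and CD8+ replicate 1 was above CD8+ replicate 2 without coming near the DN arrays. In the RefSeq gene order, 1 protein-coding gene lies between Ifitm1 and Ifitm6 on chromosome 7 and 1 between S100a4 and S100a6 on chromosome 3. Other members of the families were not called. Ifitm2 read 75.8 and 104 on the CD8+ arrays and 229 and 144 on the DN arrays (log2 difference -0.96 ± 0.37, adjusted p = 0.382), S100a10 read 125 and 83.4 on the CD8+ arrays and 326 and 254 on the DN arrays (log2 difference -1.43 ± 0.43, adjusted p = 0.187), and S100a13 read 852 and 418 on the CD8+ arrays and 377 and 214 on the DN arrays (log2 difference 1.06 ± 0.44, adjusted p = 0.451). The first 2 had the sign of their called relatives and S100a13 the opposite one. Of the 4 called genes, 4, 4, 1 and 1 were still called without CD8+ replicate 1, CD8+ replicate 2, DN replicate 1 or DN replicate 2, with adjusted p up to 0.176. Ifitm1 was called each time.

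The Ifitm genes were the only 2 called among 29 tested genes of an interferon-induced list of 45, whose median was -0.21. Ifi27, a mitochondrial interferon-induced protein, read 14.0 and 128 on the CD8+ arrays and 681 and 423 on the DN arrays (log2 difference -3.08 ± 1.01, adjusted p = 0.255). Isg20, an RNA exonuclease, read 89.3 and 90.1 on the CD8+ arrays and 322 and 152 on the DN arrays (log2 difference -1.23 ± 0.48, adjusted p = 0.401). Both genes read lower on each CD8+ array than on either DN array, with replicates that differed more than 2-fold in CD8+ cells for Ifi27 and in DN cells for Isg20.

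Secreted proteins and enzymes also fell. Mmp9, a gelatinase that cleaves basement membrane collagen, read -38.3 and -18.9 on the CD8+ arrays and 228 and 343 on the DN arrays and was at least 3.06-fold lower in CD8+ cells (log2 difference -4.47 ± 0.64, adjusted p = 0.0063). Mmp12, the macrophage elastase, read 168 and 82.1 on the CD8+ arrays and 490.1 and 725 on the DN arrays (at least 4.82-fold lower, log2 difference -2.28 ± 0.41, adjusted p = 0.0196), and a second probe set of it fell too. Pltp, a phospholipid transfer protein encoded near Mmp9 on chromosome 2, read 55.1 and 60.8 on the CD8+ arrays and 226 and 239.5 on the DN arrays (at least 2.55-fold lower, log2 difference -1.83 ± 0.38, adjusted p = 0.0405). No CD8+ value of Mmp9 was above 0, so the bound is the more cautious figure for it too. Cfp, the complement regulator properdin, read 209 and 537 on the CD8+ arrays and 1424 and 1874 on the DN arrays (4.85-fold lower, log2 difference -2.28 ± 0.39, adjusted p = 0.0147). Acp5 read 51.5 and 158 on the CD8+ arrays and 629 and 603 on the DN arrays (at least 5.13-fold lower, log2 difference -2.65 ± 0.45, adjusted p = 0.0147). Lta4h, which makes leukotriene B4, read 725 and 695 on the CD8+ arrays and 1712 and 2507 on the DN arrays (2.92-fold lower, log2 difference -1.54 ± 0.28, adjusted p = 0.0202). Lta4h was bright on all arrays, and for the other 2 genes the CD8+ replicates differed more than 2-fold, with CD8+ replicate 1 the lower. Tgm2, a transglutaminase, and Abcb1a, the P-glycoprotein drug transporter, were at least 2.1-fold and at least 2.01-fold lower. Of the glycan-processing enzymes, Man1a was at least 4.99-fold lower (adjusted p = 0.0147) and B4galnt1 was 3.71-fold lower (adjusted p = 0.013). Of these 10 genes, 3, 5, 0 and 0 were still called without CD8+ replicate 1, CD8+ replicate 2, DN replicate 1 or DN replicate 2, with adjusted p up to 0.326. Cfp was the only called gene among 15 tested genes of a complement and coagulation list of 30, whose median was 0.16. Procr, the endothelial protein C receptor, read 372 and 424 on the CD8+ arrays and 217 and 185 on the DN arrays and was not called (log2 difference 0.97 ± 0.24, adjusted p = 0.0952).

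Inside the cell, the lower genes included regulators of transcription and of the cell cycle. Bhlhe40, a transcriptional repressor, read 226 and 350.4 on the CD8+ arrays and 1282 and 1115 on the DN arrays (4.22-fold lower, log2 difference -2.08 ± 0.31, adjusted p = 0.00747). Ccnd1, cyclin D1, read 470.4 and 783 on the CD8+ arrays and 2117 and 1561 on the DN arrays (2.99-fold lower, log2 difference -1.58 ± 0.29, adjusted p = 0.0208), and a second probe set fell as well. Rbm38, an RNA-binding protein induced by p53, read 113 and 214 on the CD8+ arrays and 544 and 842 on the DN arrays (4.26-fold lower, log2 difference -2.09 ± 0.43, adjusted p = 0.04). The groups were apart in each of the 3. Ccnd1 was the only called gene among 41 tested cell cycle genes of a list of 54, whose median was -0.32. Of the 41, 8 passed the filter on low values only through CD4+ and DN arrays and 0 only through CD8+ arrays. The median is therefore a description. Rrm2, a subunit of ribonucleotide reductase, read 89.3 and 180.0 on the CD8+ arrays and 244 and 335 on the DN arrays (log2 difference -1.13 ± 0.40, adjusted p = 0.301). Cdk2, a kinase of S phase entry, read 168 and 171 on the CD8+ arrays and 354 and 312 on the DN arrays (log2 difference -0.95 ± 0.38, adjusted p = 0.416). Both were lower in CD8+ cells without passing the test.

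Proteins of cell junctions and the cytoskeleton were Ctnnd2, delta-catenin, at 97.7 and 105 on the CD8+ arrays and 642 and 842 on the DN arrays (6.93-fold lower, log2 difference -2.79 ± 0.35, adjusted p = 0.00371), Macf1, which links microtubules to actin (2.9-fold lower, adjusted p = 0.0413), and Sash1, a scaffold protein (at least 4.02-fold lower, adjusted p = 0.0348). Arhgap9 read 249 and 322 on the CD8+ arrays and 909.8 and 1167 on the DN arrays (3.62-fold lower, log2 difference -1.85 ± 0.28, adjusted p = 0.00792), and Rin2, which activates the endosomal GTPase RAB5, was at least 3.0-fold lower (adjusted p = 0.0488). Ryr3, a calcium release channel, read 30.3 and 23.1 on the CD8+ arrays and 226 and 307 on the DN arrays (at least 2.88-fold lower, log2 difference -2.74 ± 0.44, adjusted p = 0.0111). The CD8+ replicates of Ctnnd2, Arhgap9 and Ryr3 lay close together and far under the DN arrays. App, the amyloid precursor protein, had the smallest called difference, at 679.9 and 659.9 on the CD8+ arrays and 1474 and 1497 on the DN arrays (2.22-fold lower, log2 difference -1.15 ± 0.25, adjusted p = 0.0488), and its replicates lay close together within each group. Its call was lost with the experiment number as a block (adjusted p = 0.0521). Bex6, Lysmd2, Fam107b, Avpi1, Mycbp2 and Ank were 5.33-, at least 3.58-, 4.01-, at least 4.33-, 2.89- and at least 2.98-fold lower, in this order. Of the 16 called genes of this and the preceding paragraph, 5, 9, 2 and 0 were still called without CD8+ replicate 1, CD8+ replicate 2, DN replicate 1 or DN replicate 2, with adjusted p up to 0.419.

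Among transcription factors of dendritic cells, the factors that define the lineages were mostly not called. Of a list of 28, 22 were tested, 2 fell (Relb and Bhlhe40), 0 rose and the median was -0.26. Irf8, needed for CD8+ dendritic cells, read 8271 and 5017 on the CD8+ arrays and 1637 and 1124 on the DN arrays, a 4.75-fold higher level with a wide standard error (log2 difference 2.25 ± 0.66, adjusted p = 0.174). Irf4, which acts in the CD8-negative lineage, read 47.2 and 154 on the CD8+ arrays and 514 and 400.2 on the DN arrays (log2 difference -2.27 ± 0.69, adjusted p = 0.2). Id2, an inhibitor of basic helix-loop-helix factors, read 6684 and 3565 on the CD8+ arrays and 2320.1 and 2557 on the DN arrays (log2 difference 1.00 ± 0.31, adjusted p = 0.2). The groups did not overlap for these 3 genes, as for 35.4% of all tested probe sets, with Irf8 and Id2 brighter and Irf4 dimmer on both CD8+ arrays. Irf8 passed the threshold in 5 of the alternatives tried, among them the fit to the groups compared alone (adjusted p = 0.0237) and the fit with the experiment number as a block (adjusted p = 0.0066). Batf3, a partner of IRF8, read 1744 and 1762 on the CD8+ arrays and 1363 and 1588 on the DN arrays, nearly the same on all 4 arrays (log2 difference 0.25 ± 0.35, adjusted p = 0.987). Flt3, the receptor for the growth factor of dendritic cells, read 2435 and 3103 on the CD8+ arrays and 2392 and 1617 on the DN arrays (log2 difference 0.48 ± 0.29, adjusted p = 0.71). Klf4 read 908 and 662 on the CD8+ arrays and 1262 and 1589 on the DN arrays (log2 difference -0.87 ± 0.34, adjusted p = 0.401), Ikzf1 read 77.3 and 223 on the CD8+ arrays and 342 and 471 on the DN arrays (log2 difference -1.55 ± 0.55, adjusted p = 0.301), and Spib read 136 and 136 on the CD8+ arrays and 380.4 and 302 on the DN arrays (log2 difference -1.28 ± 0.48, adjusted p = 0.367). These 3 factors were lower on both CD8+ arrays without passing the test.

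**Figure D3:**
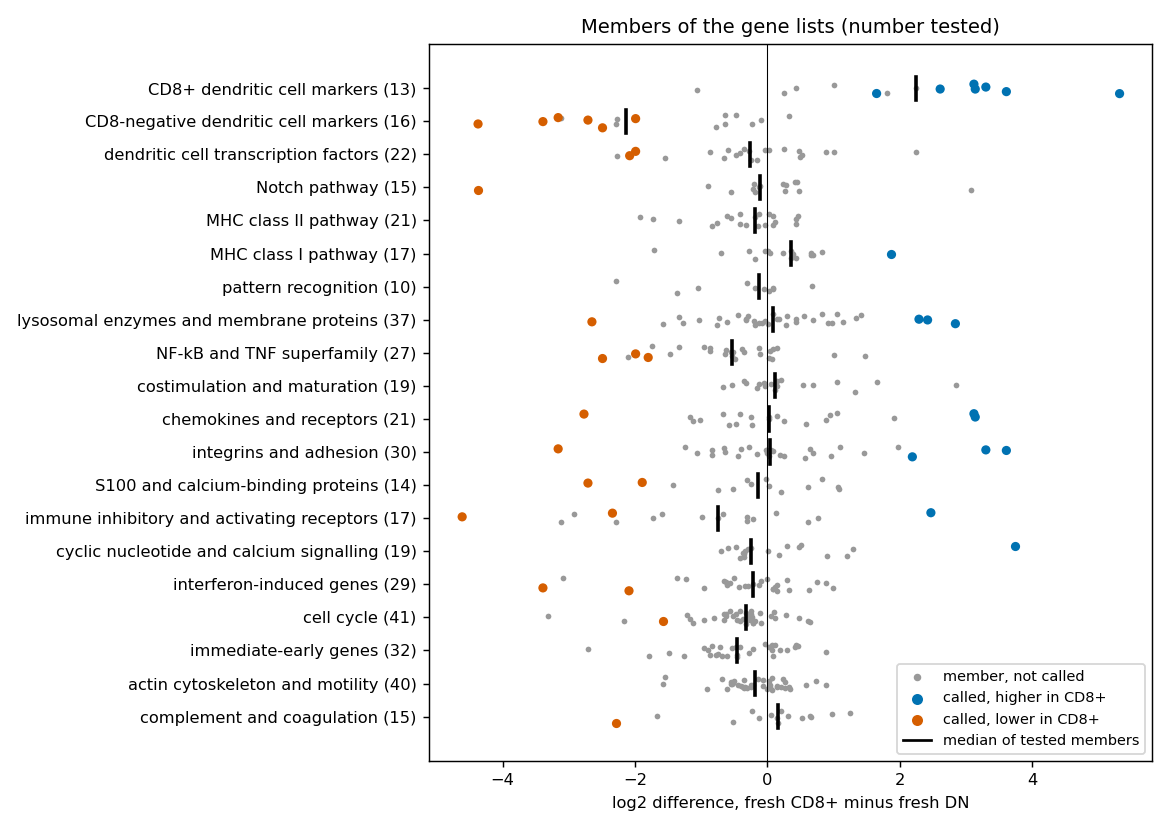
Each point is a tested gene of the list named on the left, with its log2 difference between fresh CD8+ and fresh DN cells on the horizontal axis, the number tested in parentheses, called genes in colour and the median as a vertical bar. The marker lists of CD8+ and CD8-negative dendritic cells have medians of 2.25 and -2.13, and the medians of the other 18 lists lie between -0.75 and 0.36. In many lists some members passed the filter on low values only through CD8+ arrays or only through CD4+ and DN arrays. The medians are therefore a description.

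Few antigen presentation genes passed the test. Of a list of 24 genes of the MHC class II pathway, 21 were tested and 0 were called in either direction, with a median of -0.18. The largest difference in that pathway was H2-DMb2, a chain of the peptide loading factor, at 194 and 1030.2 on the CD8+ arrays and 2329 and 1269.8 on the DN arrays. The CD8+ replicates alone differed more than 5-fold, and the gene was not called (log2 difference -1.93 ± 0.68, adjusted p = 0.308). Ctsz and Ctsh, lysosomal cathepsins, read 357 and 683 on the CD8+ arrays and 1173 and 1319 on the DN arrays for Ctsz (log2 difference -1.33 ± 0.29, adjusted p = 0.0556) and 1251 and 1962 on the CD8+ arrays and 2488 and 2811 on the DN arrays for Ctsh (log2 difference -0.76 ± 0.30, adjusted p = 0.408). Ctsz missed the threshold narrowly and passed it in 7 of the alternatives tried, among them the experiment number as a block (adjusted p = 0.0423). Without CD8+ replicate 2, Ctsz, H2-DMb2 and Ciita, the master regulator of class II genes, fell (adjusted p = 0.0128, 0.0342 and 0.0342). Of 23 genes of the MHC class I pathway, 17 were tested, only Cd1d1 rose, none fell, and the median was 0.36. The peptide transporter genes Tap1 and Tap2 read 3133 and 2756 on the CD8+ arrays and 1957 and 1763 on the DN arrays for Tap1 (log2 difference 0.66 ± 0.25, adjusted p = 0.377) and 697 and 476 on the CD8+ arrays and 286 and 362 on the DN arrays for Tap2 (log2 difference 0.83 ± 0.29, adjusted p = 0.289). Psmb10, a subunit of the immunoproteasome, read 623 and 1171 on the CD8+ arrays and 1198 and 1610.5 on the DN arrays (log2 difference -0.70 ± 0.33, adjusted p = 0.549). Both CD8+ arrays were above the DN arrays for Tap1 and Tap2 and below them for Psmb10, and none passed the test.

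Several other groups had no called gene. These were pattern recognition (10 tested of 39 listed, median -0.12), costimulation and maturation (19 of 27, median 0.12), immediate-early genes (32 of 41, median -0.46), and the actin cytoskeleton and motility (40 of 48, median -0.18). Cd86, a ligand of CD28, read 455 and 362 on the CD8+ arrays and 123 and 126 on the DN arrays, and the difference was 3.17-fold without passing the test (log2 difference 1.66 ± 0.39, adjusted p = 0.0774). Il12b, the p40 subunit of interleukin 12, read 119.9 and 134 on the CD8+ arrays and -3.6 and -17.7 on the DN arrays, above the floor only in CD8+ cells (log2 difference 2.85 ± 1.59, adjusted p = 0.649). Ptgs2, the inducible cyclooxygenase, read 65.5 and 42.9 on the CD8+ arrays and 339 and 485 on the DN arrays (log2 difference -2.71 ± 0.79, adjusted p = 0.174). The groups did not overlap in these 3 genes, as for 35.4% of all tested probe sets. The standard errors of Il12b and Ptgs2 were large. They pool the spread over all 12 arrays, cultured ones included, and do not measure the spread of the fresh arrays alone. In the limma fit to the groups compared alone, Ptgs2 fell (adjusted p = 0.0187). Ier3 and Nr4a2, immediate-early genes, read 297 and 609 on the CD8+ arrays and 905 and 1552 on the DN arrays for Ier3 (log2 difference -1.48 ± 0.38, adjusted p = 0.111) and 77.4 and 108 on the CD8+ arrays and 269 and 196 on the DN arrays for Nr4a2 (log2 difference -1.26 ± 0.32, adjusted p = 0.108). Gsn and Rac2, which remodel actin, read 592 and 1532 on the CD8+ arrays and 2507 and 3055 on the DN arrays for Gsn (log2 difference -1.54 ± 0.44, adjusted p = 0.17) and 1020.5 and 1395 on the CD8+ arrays and 2898 and 1730.1 on the DN arrays for Rac2 (log2 difference -0.91 ± 0.32, adjusted p = 0.301). Each of these 4 was lower on both CD8+ arrays, and none was called. With the experiment number as a block 3 immediate-early genes fell, Ier3 (adjusted p = 0.0358), Ptgs2 (adjusted p = 0.00562) and Gadd45g (adjusted p = 0.0302).

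Of 45 chemokines and receptors, 21 were tested, Cxcl9 and Xcr1 rose, Ccr6 fell and the median was 0.02. Ccl22, a ligand of CCR4, read 401 and 340.2 on the CD8+ arrays and 126 and 67.2 on the DN arrays (log2 difference 1.91 ± 0.51, adjusted p = 0.126) and was called with the experiment number as a block (adjusted p = 0.0226). Ccl5, not called either, fell with the block (adjusted p = 0.0322). Ccr7, which guides dendritic cells to lymph nodes, read 208 and 378 on the CD8+ arrays and 529 and 382 on the DN arrays (log2 difference -0.67 ± 0.31, adjusted p = 0.529). Cxcr3, the receptor of CXCL9, read 205 and 298 on the CD8+ arrays and 132 and 101 on the DN arrays (log2 difference 1.05 ± 0.37, adjusted p = 0.299). Ccl22 and Cxcr3 were higher on both CD8+ arrays, and Ccr7 was lower on both, with none of the 3 called without the block. Of 44 integrins and adhesion genes, 30 were tested, with 3 that rose (Itgae, Cadm1 and Cd81), 1 that fell (Plxnd1) and a median of 0.05. Itgb7, the beta chain that pairs with the product of Itgae, read 689.5 and 1218 on the CD8+ arrays and 1824 and 2012 on the DN arrays, opposite in sign to Itgae and not called (log2 difference -1.06 ± 0.30, adjusted p = 0.166). Cd9, a tetraspanin like Cd81, read 1173 and 1125 on the CD8+ arrays and 501 and 579 on the DN arrays (log2 difference 1.09 ± 0.27, adjusted p = 0.0919). It was higher on each CD8+ array and not called.

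Markers of other spleen cells were checked as whole lists. For T cells, 17 of 24 markers were on the array and 0 were called. Cd3d, Cd3e and Cd3g were below the floor on all 4 arrays, and the summed intensity over the list was 272 to 654 in CD8+ and 490 to 624 in DN cells. For B cells, 18 of 23 were on the array and 2 fell, Cd22 and Ltb. Cd79a was below the floor on all 4 arrays, and Cd79b and Ms4a1 were above it on all 4. The summed intensity was 5831 to 6257 in CD8+ and 8927 to 9073 in DN cells. Without Ltb it was 4966 and 5453 in CD8+ and 4896 and 3652 in DN cells, so the higher sum of DN cells rested on that gene. Ighm, the heavy chain of IgM, read 2741 and 3965 on the CD8+ arrays and 2118 and 1264 on the DN arrays, not called and higher in CD8+ cells (log2 difference 1.01 ± 0.61, adjusted p = 0.705). For NK cells, 13 of 18 were on the array and only Klrd1 fell. Ccl5 was not called (log2 difference -1.17 ± 0.59, adjusted p = 0.594) but fell with the experiment number as a block (adjusted p = 0.0322). Ncr1, Gzma and Prf1 were below the floor on all 4 arrays, and the sum was 1030 to 2139 in CD8+ and 3145 to 4253 in DN cells, most of it from Ccl5 and Klrd1. For neutrophils, 16 of 18 were on the array and Mmp9 and Il1r2 fell. S100a8, S100a9 and Ly6g were below the floor on all 4 arrays, and the sum was 435 to 910 in CD8+ and 850 to 1207 in DN cells.

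Of 27 macrophage and monocyte markers, 21 were on the array and 0 were called. Adgre1, which encodes the F4/80 antigen, read 13.3 and 50.5 on the CD8+ arrays and 146 and 183 on the DN arrays (log2 difference -1.97 ± 0.76, adjusted p = 0.388), and Vcam1, an adhesion molecule of splenic macrophages, read 289 and 113 on the CD8+ arrays and 32.8 and 39.2 on the DN arrays (log2 difference 1.97 ± 0.62, adjusted p = 0.223). These moved in opposite directions without passing the test. The sum over the list was 4343 to 5240 in CD8+ and 3194 to 4336 in DN cells. No marker of plasma cells, plasmacytoid dendritic cells, red cells, platelets, stromal and endothelial cells or basophils and mast cells was called (7, 11, 12, 6, 17 and 12 on the array). With the experiment number as a block the plasma cell marker Igha rose (log2 difference 2.26, adjusted p = 0.0422, against 0.528 without the block). The summed red cell markers followed the replicate number and not the subset, with 2363 and 2565 on the first and 1022 and 1223 on the second replicates of CD8+ and DN cells. The part of these markers in the results was not tested.

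The cultured CD8+ and DN cells, which are on other arrays, gave a second measurement of the same contrast. Between them, 80 of the 6159 probe sets were called (1.3%), 40 higher and 40 lower, and 132 with the experiment number as a block. Of the 88 fresh calls, 84 had the same direction after culture. The share with equal direction over all tested probe sets was not computed, so this count has no background beside it. Of the 88, 41 were also called after culture in the same direction. These 41 are 46.6% of the fresh and 51.2% of the cultured calls, with 21 higher and 20 lower. No probe set was called in opposite directions. Both contrasts came from the same fit and share its variance estimate for each probe set. A probe set with a small estimate is favoured in both, so the 41 shared calls are no independent replication. With only the groups compared in the fit, 94 probe sets were called fresh and 30 cultured. After culture the median log2 difference of the 38 higher fresh calls was 2.38, and that of the 50 lower fresh calls was -1.44. The difference was smaller in size after culture for 67 of the 88, 27 of the higher and 40 of the lower. The probe sets were chosen by their fresh values, so a smaller value after culture is a description and no test.

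Cd8a read 891 and 679 in cultured CD8+ and -17.9 and 31.3 in cultured DN cells (log2 difference 4.91 ± 0.52, adjusted p = 0.00265). Gusb read 1722 and 1793 against 153 and 195 (3.32 ± 0.25, adjusted p = 0.000272), and Cadm1 read 1839 and 3290.0 against 213 and 256 (3.39 ± 0.45, adjusted p = 0.00536). These 3 genes kept their order on every cultured array. Dtx1 read 154 and 178 against 592 and 931 (-2.14 ± 0.28, adjusted p = 0.00463), and S100a4 read 164 and 142 against 2231 and 1347 (-3.47 ± 0.39, adjusted p = 0.00349). Relb, called fresh, read 1316 and 1305 against 1700.5 and 1942 and was not called after culture (-0.47 ± 0.23, adjusted p = 0.539). Dtx1 and S100a4 were lower on both cultured CD8+ arrays, and Relb was lower there by a small margin. Il1r2 read 589 and 611 in cultured CD8+ and 5048 and 4642 in cultured DN cells (-3.01 ± 0.42, adjusted p = 0.00666), at far brighter levels than in fresh cells of either kind. Klf4 and Procr, not called fresh, were called after culture, at -2.04 ± 0.34 (adjusted p = 0.0178) and 1.34 ± 0.24 (adjusted p = 0.0233).

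The difference between the fresh and the cultured contrast was tested itself, as an interaction in limma. No probe set was called (0.0%), with 250 at an unadjusted p under 0.05 and a smallest adjusted p of 0.426. Without the intensity trend 1 probe set was called, without the 3 arrays of high Gapdh ratio 1, and without single arrays up to 3. The fresh minus the cultured contrast was 3.99 ± 0.65 for Ppt2 (adjusted p = 0.426), whose cultured values were 35.5 and 45.6 in CD8+ and 126 and 92.2 in DN cells. It was -2.23 ± 0.40 for Dtx1 (adjusted p = 0.426) and -5.34 ± 1.06 for Cd22 (adjusted p = 0.456), with cultured values of -25.5 and -95.1 in CD8+ and -106 and -91.3 in DN cells. Ppt2, Cd22 and Bcl3 were the named fresh calls whose sign differed after culture, and Cd22 was below the floor on all 4 cultured arrays. The fit as reported did not call a change in these genes' contrast with culture. With 2 arrays per group a change may still be present.

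**Figure D4:**
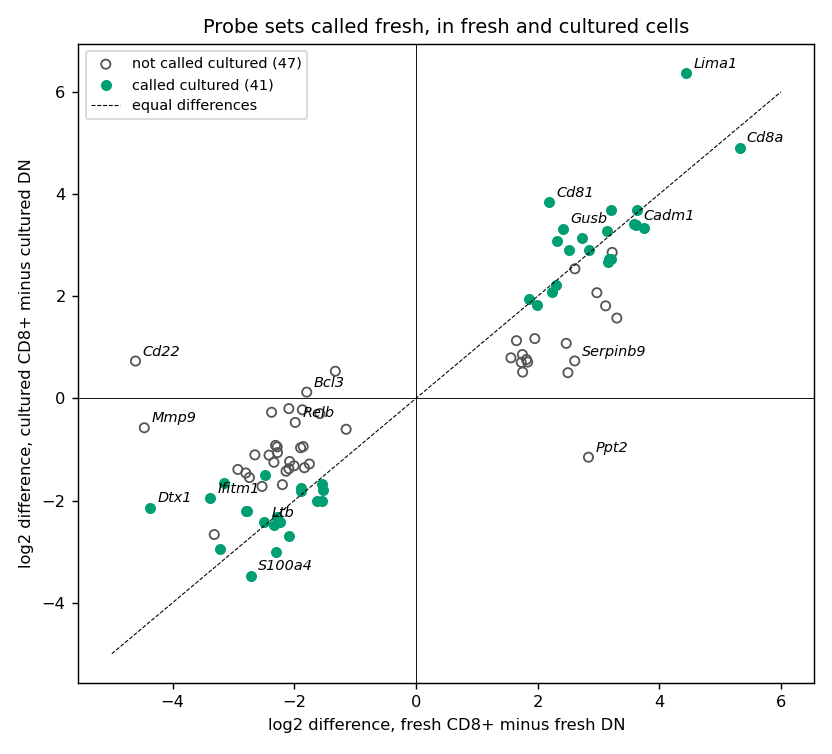
The log2 difference between CD8+ and DN cells is plotted for fresh cells (horizontal axis) and cultured cells (vertical axis) for the 88 probe sets called fresh, with those also called cultured filled. The 84 probe sets of the same direction lie in the lower left and upper right, and 67 lie nearer to 0 in cultured cells than in fresh cells.

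The fresh CD4+ cells place the contrast beside the other CD8-negative subset. Their comparisons with CD8+ and with DN cells share arrays with the contrast above, so the values here are a description beside it. Ltb read 5186 and 4049, Ifitm1 605 and 586, and Cd22 512 and 564 on the fresh CD4+ arrays, all near the DN values. Cd24a read 164 and 219 on the CD4+ arrays, below the DN values of 712 and 728, with a DN minus CD4+ log2 difference of 1.90 ± 0.28 (adjusted p = 0.184 in limma). Irf8 read 448 and 243 on the CD4+ arrays against 1637 and 1124 on the DN arrays (2.03 ± 0.66, adjusted p = 1.0). Mpeg1 read 486 and 292 against 1114 and 888 (1.39 ± 0.39, adjusted p = 1.0), and Pdia5 read 23.4 and 20.7 against 134 and 82.1 (adjusted p = 1.0). For these 4 genes the DN arrays lay between the CD8+ and the CD4+ arrays, and the step from CD4+ to DN cells did not pass the test. Klrd1 read 609 and 489.9 on the CD4+ arrays, which puts them between the CD8+ and the DN arrays (0.91 ± 0.45, adjusted p = 1.0 for DN minus CD4+).

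Start-site windows of 300 bases were searched on both strands for the letters of 5 motifs. RefSeq windows were found for 27 of the 34 higher genes (38 windows) and 33 of the 46 lower genes (40 windows), and the background is all 32851 windows of the same length. The NF-kB letters GGGANNNNCC were in 11 windows of higher genes (28.9%) and 12 of lower genes (30.0%), against 20.7% of all. TGGGAA for RBPJ was in 9 (23.7%) and 12 (30.0%), against 25.6%. The ETS-IRF composite GGAANNGAAA was in 2 windows of higher genes, those of Cd8a and Fcgr2b (5.26%), and in 1 of lower genes, that of Ifitm6 (2.5%), against 2.72%. GAAANNGAAA, the interferon response element, was in 4 windows of higher genes, Aif1, Ece1, Pde1b and Serpinb9 (10.5%), and in 0 of lower genes, against 3.44%. AP-1 letters, TGANTCA, were in 2 and 4 windows, against 7.81% of all. The interferon response and ETS-IRF letters can overlap each other, and some genes have several windows that share bases. These shares are descriptions with no test, and they rest on few windows.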

How the data were processed

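RNA of sorted mouse spleen dendritic cells was measured on oligonucleotide arrays. The authors deposited Average Difference intensities on a linear scale, globally scaled per the labels. Which software made them is not stated in the sources used here. Each intensity x became log2 of the mean of x and sqrt(x² + c²), a generalised log2 value, where c = 45.7 is the size of the noise, taken per array as the root mean square of negative values and then as the median of the 12 arrays. This scale understates differences of dim probe sets and overstates those that rest on values below 0. The detection floor was 2 times c, 91.4. Of 12488 probe sets, 66 controls were left out, and those above the floor on at least 2 of 12 arrays, 6159, were tested. A bound is the bright group's mean against the higher of the floor and the dim group's own value on each array.

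limma 3.58.1 in R 4.3.3 fitted 1 mean per group over all 12 arrays, with eBayes, an intensity trend and robust estimation (6 residual and a median of 5.09 prior degrees of freedom). The platform annotation gave 1 symbol to 10833 probe sets, several to 396 and none to 1193. A gene was represented by its probe set of highest mean, and 666 of the 4735 tested genes had several. The text names every called gene and 12 genes of the sort and the lineages, and from each of 31 gene lists may name the 6 members with the smallest p. The members and lists were chosen with earlier results of these data known. The titles number the arrays of each group as experiment 1 and 2, without saying whether equal numbers share mice or a day. Same-numbered arrays deviated together (correlation 0.179 between fresh CD8+ and DN, 0.106 to 0.444 over all 15 pairs of groups). The fit as reported has no block, so it leaves out a possible pairing. A fit with the experiment number as a block is given where it changes the fresh call of a named gene. The limma fit of the fresh contrast was tested on simulated arrays, with independent noise of the same size on every array. They hold neither an outlying replicate nor same-numbered arrays that deviate together, so that test does not cover these features of the data. Python 3.11.15 served for tables and motif searches (pandas 2.3.3, numpy 2.4.6) and plots (matplotlib 3.10.9). Alternatives changed the offset, the treatment of dim values, the filter, the normalization, the arrays fitted, the variance model and the replicate block, or left out arrays.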

Additional observations from a re-analysis of the deposited data

How the results depend on the processing

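The fresh contrast kept both directions in every setting, with 59 to 119 calls (88 in the report) for another offset, filter, normalization, set of arrays fitted or variance model. Setting values under the floor to the floor gave 134 calls, 72 higher and 62 lower against 38 and 50, dropping the 3 arrays with a Gapdh ratio above 1.3 gave 155, and leaving out single arrays gave 8 to 123. The cultured contrast, with 80 calls, gave 30 when only the groups compared were fitted, 182 with array weights, 210 without the same 3 arrays and 5 to 162 without single arrays. The interaction, with 0 calls, gave 1 without the intensity trend, 1 without those 3 arrays and 0 to 3 without single arrays. With the replicate number as a block, 118 probe sets were called fresh, 132 cultured and 0 for the interaction. For the 79 genes whose brightest probe set was called, 1412 of the refits kept the call and 468 lost it, with no change of direction. Among 53 uncalled genes named, 20 passed in at least 1 alternative, and the sign turned for Cd4 without fresh CD8+ replicate 2 (range without single arrays -0.37 to 0.18) and Itgam without fresh DN replicate 1 (-1.53 to 0.25). The cause of these shifts was not tested. With 2 arrays per group, a gene that was not called may still differ, and genes near the floor have only bounds.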
